A study of Drosophila melanogaster with 20 samples.

Results

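Of the 15473 transcripts measured in wings of Drosophila melanogaster, 77 (0.498%) had higher signal with activated Thickveins (Tkv) at both a larval and a pupal stage, and these 77 are described here. They were chosen by their measured values. The log2 intensity, quantile-normalized over all 20 arrays, had to be higher in Tkv than in control wings by a mean of at least 0.5 in larval wings and by at least 0.5 in pupal wings. Tkv also had to exceed control in all 5 pairs of arrays with the same replicate number at each stage. The response of a transcript below means this difference of Tkv from control wings, on the log2 scale. Because both responses were used for the choice, they are given as a description and were not taken as evidence.

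Total RNA from 10 dissected wings per sample was hybridised in a single dye to NimbleGen arrays, in 4 groups of 5 samples. Control larval wings came from wandering larvae of the last instar of a matched control strain without the UAS transgene. Tkv larval wings were of the same stage and expressed activated Tkv from a UAS transgene through Gal4. Control pupal and Tkv pupal wings were the corresponding groups at 24 h after pupa formation. All animals, controls included, were grown at 18 °C and moved to 28 °C for 10 h before dissection, and pupae were staged from white prepupae. No label names the Gal4 driver, or the cells of the wing in which it acts. The dissected wings can hold several cell types, and fewer cells of a type and less RNA per cell cannot be told apart in such samples. What else sets the transgenic animals apart from their control strain cannot be told apart from Tkv activity in any response below.

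Tkv is a type I serine/threonine kinase receptor for the BMP-family ligand Decapentaplegic (Dpp). Bound to its ligand together with a type II receptor, it phosphorylates the transcription factor Mad, which enters the nucleus with Medea and acts on target genes, in part by repressing the repressor brinker. Activated forms of the receptor signal without ligand. In the larval wing disc Dpp signalling patterns the anterior-posterior axis and supports growth, and in the pupal wing it takes part in the formation of veins. The files name transcripts by FlyBase transcript ID only. None of the 77 IDs occurred in the RefSeq gene table used here, so no gene name or role is given to any of them, and the lists of BMP pathway genes and of cell type markers could not be followed. The labelled tissue was not checked against markers, and the tkv transcript was not used to check the labels, for the same reason.

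Most of the 77 responses were modest, and a few were very large. In larval wings the response ranged from 0.50 to 6.86 with a median of 0.82, against a median of -0.01 over all transcripts. In pupal wings it ranged from 0.50 to 7.86 with a median of 1.02, against 0.00 (-0.0033) over all transcripts. At least 2-fold responses at both stages (1 or more on the log2 scale) were seen in 18 members, and at least 4-fold responses at both stages in 6. Both responses stayed under 2-fold in 31 members. The pupal response was the larger in 52 members and the larval response in 25, and in 57 the responses at the 2 stages lay within 0.5 of each other. All 5 Tkv arrays lay above all 5 control arrays at both stages for 46 members. Such a separation at both stages was found for 0.427% of all transcripts, 66 in number. In limma's fit across all transcripts, 46 members were called higher in larval wings (0.730% of all transcripts were) and 54 in pupal wings (1.62% were), at an adjusted p under 0.05. The calls fell at both stages for 38 members, in larval wings alone for 8, in pupal wings alone for 16 and at neither stage for 15. These counts follow from the choice of the members, and nothing is read from them.

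**Figure D1:**
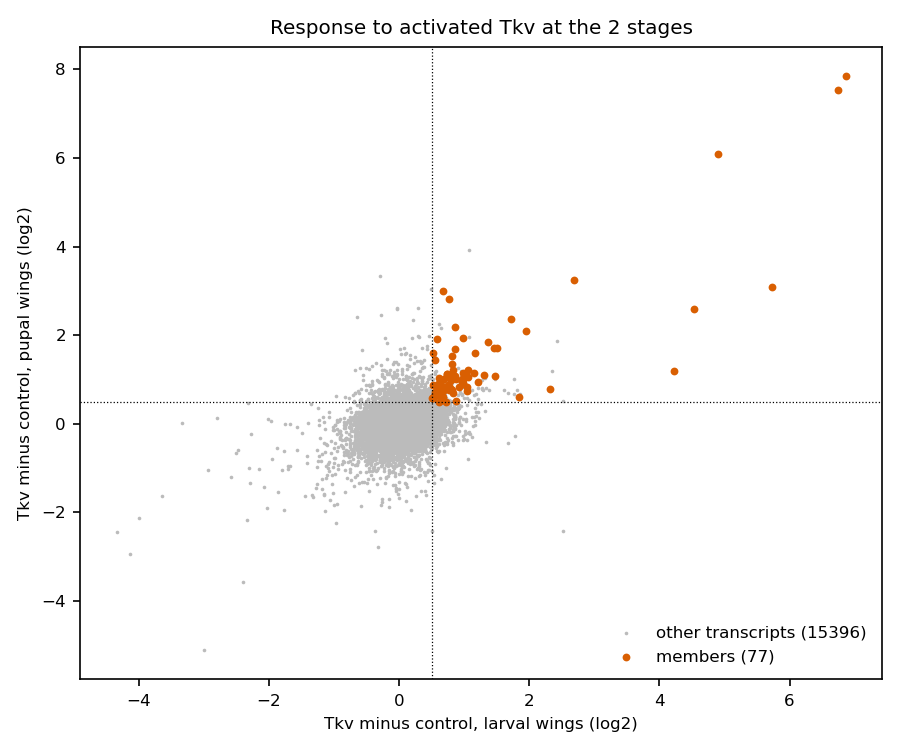
Each point is a transcript, with its larval response (Tkv minus control, log2) on the x axis and its pupal response on the y axis. Members are orange, other transcripts are grey, and dotted lines mark the threshold of 0.5. The median member lies at 0.82 on the x axis and 1.02 on the y axis, and 3 lie far out at both stages, with a larval response from 4.90 to 6.86 and a pupal response from 6.10 to 7.86.

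The 3 transcripts with the largest mean response were near the bottom of the intensity scale in control wings and among the bright transcripts in Tkv wings. Normalized intensities fell into a lower and an upper mode, and a log2 value of 8.61, the low point of their density, is used here to call a transcript dim or bright. FBtr0088591 lay at 6.74, 5.85, 6.01, 8.79 and 5.89 in control larval wings (replicates 1 to 5) and at 13.19, 13.90, 13.46, 13.58 and 13.46 in Tkv larval wings. In pupal wings it lay at 6.05, 6.29, 5.62, 5.10 and 5.57 in controls and at 13.44, 13.39, 13.61, 13.83 and 13.64 with Tkv. No Tkv array came near a control array, although replicate 4 of the larval controls stood 2.06 above the next highest larval control. The responses were 6.86 ± 0.40 (SE) in larval wings and 7.86 ± 0.40 in pupal wings. The files used hold no detection call, so control levels this low are not shown to be above background, and for this and the following 2 transcripts no fold is given. Its Tkv level hardly differed between stages, with a pupal minus larval difference of 0.07 ± 0.40.

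FBtr0073511 behaved alike. It lay at 4.12, 5.47, 5.79, 7.18 and 4.77 in control larval wings and at 12.10, 12.97, 12.13, 11.85 and 11.98 in Tkv larval wings. Its pupal values were 4.25, 4.61, 5.26, 4.73 and 5.20 in controls and 12.29, 12.09, 12.43, 12.87 and 12.00 with Tkv. Replicate 4 was again the highest of the larval controls. The responses were 6.74 ± 0.40 and 7.53 ± 0.40.

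FBtr0088592, whose ID follows that of FBtr0088591, lay at 7.24, 6.36, 6.69, 7.08 and 7.07 in control larval wings and at 11.69, 12.18, 11.63, 11.68 and 11.74 in Tkv larval wings. In pupal wings it lay at 6.34, 6.38, 6.40, 6.26 and 5.96 in controls and at 12.36, 11.65, 12.50, 12.67 and 12.65 with Tkv. Its control values were the least spread of the 3 (SD 0.36 in larval and 0.18 in pupal wings), and replicate 4 did not stand out. The responses were 4.90 ± 0.19 and 6.10 ± 0.19. FBtr0073511 and FBtr0088592, together with FBtr0089698 at a smaller response, lay on the dim side of 8.61 on each of the 10 control arrays and on the bright side on each of the 10 Tkv arrays. They were the only such transcripts on the array, 3 of 15473 (0.0194%), and FBtr0088591 missed this pattern through the larval control at 8.79.

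Among the other 5 of the 8 members with the largest mean response, 3 were already bright in pupal controls. FBtr0071697 lay between 6.52 and 8.48 (median 7.29) in control larval wings, between 12.69 and 13.36 (median 13.00) in Tkv larval wings, between 9.06 and 10.39 (median 9.46) in control pupal wings and between 12.45 and 12.82 (median 12.66) in Tkv pupal wings. FBtr0086826 had means of 5.60 ± 0.33 (SD, n = 5) in control larval, 10.12 ± 0.26 in Tkv larval, 9.36 ± 0.25 in control pupal and 11.94 ± 0.17 in Tkv pupal wings. FBtr0081578 had means of 8.97 ± 0.30, 13.20 ± 0.20, 12.68 ± 0.30 and 13.88 ± 0.11 in the same order. In all 3 the Tkv and control arrays were apart at both stages, and the larval response was the larger.

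The other 2 of these 8 members had low signal. FBtr0076887 lay at 5.27 ± 0.57 (SD, n = 5) in control larval and 7.96 ± 0.35 in Tkv larval wings, and at 5.45 ± 0.55 and 8.69 ± 0.39 in the pupal groups. FBtr0074864 lay at 5.54 ± 0.20 and 7.26 ± 0.25 in larval wings, and at 5.07 ± 0.52 and 7.44 ± 0.69 in pupal wings. The Tkv and control arrays of both were apart at both stages. FBtr0074864 stayed under the parting value of 8.61 on all 20 arrays, and FBtr0076887 passed it in its Tkv pupal mean. Robust multi-array summaries (RMA) compress differences near the background, which bears on the folds of dim transcripts.

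**Figure D2:**
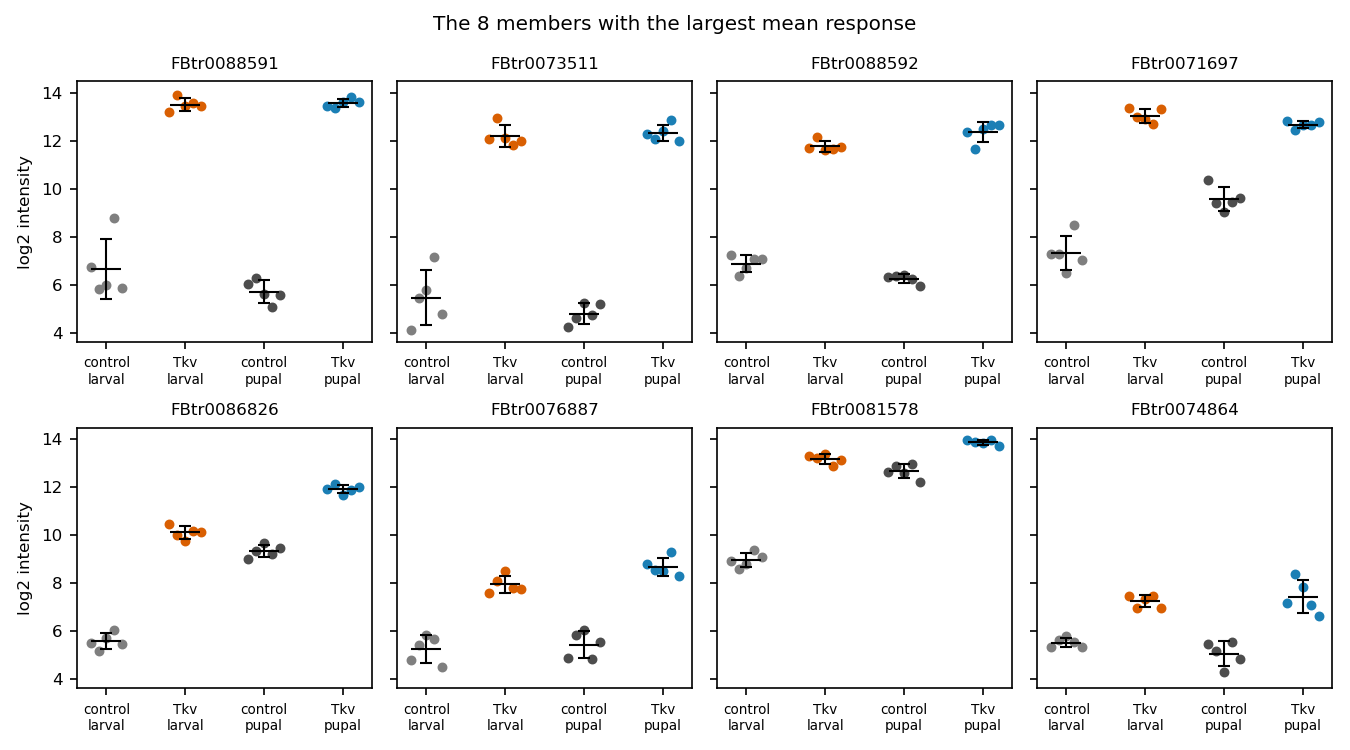
Log2 intensity (y axis) of the 8 members with the largest mean response in the 4 groups (x axis). Points are the 5 arrays of a group, replicates 1 to 5 from left to right, and black bars show the mean and SD. In FBtr0088591 and FBtr0073511 replicate 4 of the control larval wings, at 8.79 and 7.18, is the highest control point.

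Members were found in every brightness class. Of the 77 members, 23 (29.9%) were bright on all 20 arrays, 15 (19.5%) were dim on all 20 and 39 crossed the parting value. Over all transcripts 47.7% were bright on all arrays and 38.9% dim on all. The mean larval and pupal responses of the bright members had medians of 0.80 and 1.0, those of the dim members 0.82 and 0.83, and those of the crossing members 0.83 and 1.08. The median control level of the members was 8.87 in larval and 8.28 in pupal wings, against 9.39 at both stages over all transcripts. With Tkv the members' medians were 9.74 and 9.53, against 9.38 and 9.37. Going from dim on all 5 control arrays to bright on all 5 Tkv arrays was seen in larval wings for 6 members and in pupal wings for 7, with 3 in common. FBtr0071697, FBtr0086826 and FBtr0080853 did so in larval wings only, and FBtr0088591, FBtr0078240, FBtr0084830 and FBtr0070049 in pupal wings only. At both stages together 0.0194% of all transcripts did so, and no such share is given for a single stage. The choice used these same Tkv and control values, so nothing is read from these counts. The members' replicates were slightly more spread than those of other transcripts, with a median within-group SD of 0.33 against 0.30. They were read by 5 probe pairs in 75.3% of cases, against 65.3% over all transcripts.

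**Figure D3:**
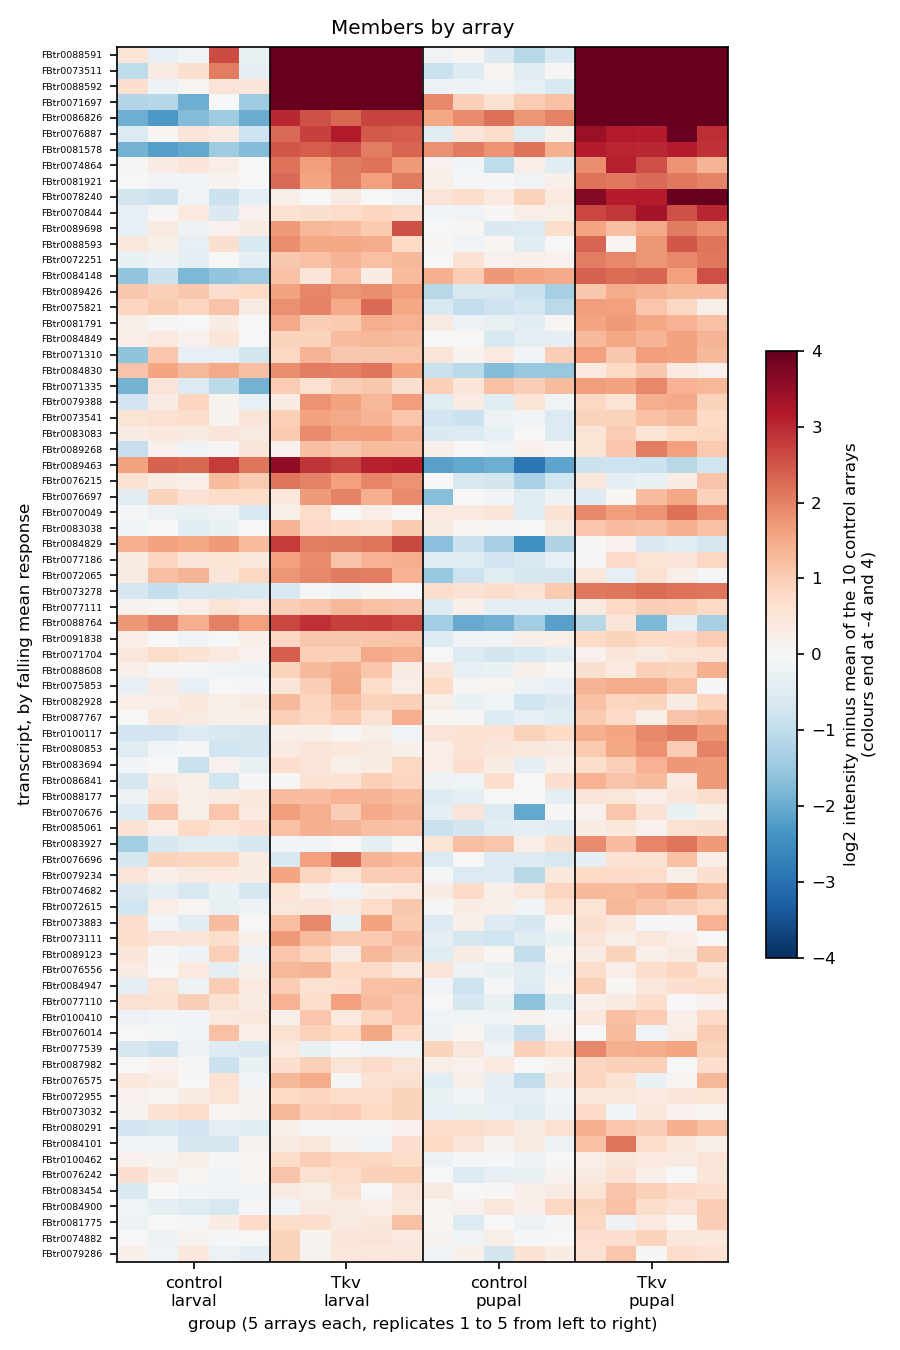
Each row is a member, ordered from the largest to the smallest mean response, and each column is an array. Colour gives the log2 intensity minus the transcript's mean over the 10 control arrays, and ends at -4 and 4. Both Tkv blocks are redder than the control block of their stage throughout, as the choice of the members requires, and rows such as FBtr0089463 and FBtr0086826 also differ strongly between the larval and pupal controls.

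The members differed widely in how they changed during normal development, a comparison that the choice did not use directly, although it used the same arrays. Between larval and pupal control wings 18 members rose (23.4%) and 25 fell (32.5%) in limma's test, against 19.7% and 20.8% of all transcripts. The other 34 members did not pass. Among transcripts with a mean over all 20 arrays above 8.61, 28.3% and 34.8% of 46 members rose and fell, against 24.9% and 26.8% of 8334 transcripts. That mean includes the Tkv arrays, on which the members were chosen to be high. Members and other transcripts are therefore not matched in control brightness. FBtr0088592, for example, passed with control means of 6.89 in larval and 6.27 in pupal wings. Nothing is read from this comparison. The median stage change was -0.22 over the members and -0.04 over all transcripts, and the median size was 0.62 against 0.35. Called changes of at least 4-fold numbered 4 in each direction. No share over all transcripts is given for them, and nothing is read from this number. Of the 43 members called, 36 had the sign of the call on all 5 slides, as read from the array image names. The share over all called transcripts is not given, so nothing is read from this count. With the slide as a fixed block 19 members rose and 28 fell.

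The 4 largest rises in control wings belonged to members whose larval response exceeded their pupal response. The control rise itself lowers the pupal response relative to the larval one, so this is not read as a result. FBtr0086826 rose from 5.60 to 9.36 between larval and pupal controls, a log2 change of 3.76 ± 0.16 (SE, limma adjusted p = 3.44e-13). FBtr0081578 rose by 3.71 ± 0.15 (limma adjusted p = 1.79e-13). FBtr0084148 lay at 5.58, 6.32, 5.36, 5.59 and 5.73 in control larval wings and at 8.57, 8.19, 8.89, 8.74 and 8.67 in control pupal wings, a rise of 2.90 ± 0.22 (limma adjusted p = 1.25e-09). FBtr0071697 rose by 2.26 ± 0.28 (limma adjusted p = 1.20e-06). The larval and pupal control arrays of the 4 did not overlap. In FBtr0086826, FBtr0081578 and FBtr0071697 the mean of Tkv larval wings lay above that of control pupal wings, by 0.77, 0.52 and 3.47. In FBtr0084148 it lay at 8.04, below the pupal control mean of 8.61. Among the 18 members that rose in controls, 6 had a Tkv larval mean at or above the control pupal mean, and 12 a lower mean. The choice set each Tkv larval mean at least 0.5 above its control, which favours reaching the pupal level. No share over all transcripts is given, and nothing is read from these counts.

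The 4 largest falls in control wings were found in members with moderate larval responses. FBtr0089463 lay at 10.95, 11.68, 11.64, 12.14 and 11.47 in control larval wings and at 7.15, 7.27, 7.37, 6.44 and 7.21 in control pupal wings, a change of -4.49 ± 0.20 (SE, limma adjusted p = 6.72e-13). With Tkv the pupal values were 8.48, 8.50, 8.48, 8.21 and 8.52, all between the pupal and the larval controls. FBtr0088764 fell by 3.55 ± 0.30 (limma adjusted p = 5.10e-09), FBtr0084829 by 3.01 ± 0.24 (limma adjusted p = 3.29e-09) and FBtr0084830 by 2.70 ± 0.18 (limma adjusted p = 2.18e-10). The mean of Tkv pupal wings stayed below that of larval controls by 3.14, 2.60, 1.79 and 0.79 in these 4. FBtr0088764 was dim in both pupal groups, and 5.54, 7.14, 4.86, 6.24 and 5.31 with Tkv overlapped the control values of 4.47 to 5.28. Over all 25 members that fell, 13 had a Tkv pupal mean at or above the control larval mean and 12 a lower mean. The choice set each Tkv pupal mean at least 0.5 above its control, which favours reaching the larval level. No share over all transcripts is given, and nothing is read from these counts.

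In Tkv wings 19 members rose (24.7%, against 18.9% of all transcripts) and 21 fell (27.3%, against 20.5%). Of the 25 that fell in controls, 19 also fell in Tkv wings (76.0%, against 78.2% of all transcripts that fell in controls), 5 did not pass and 1, FBtr0088592, rose. Of the 18 that rose in controls, 15 rose in Tkv wings (83.3%, against 78.9% of all transcripts that rose) and 3 did not pass. In neither genotype did the stage change pass for 29 members (37.7%, against 52.0% of all transcripts). FBtr0088592 fell by 0.62 ± 0.19 between control stages (limma adjusted p = 0.0124) and rose by 0.58 ± 0.19 between Tkv stages (limma adjusted p = 0.0196), each with that sign on 4 of 5 slides. Among 34 refits with limma the control fall failed in 3 (highest adjusted p = 0.0935) and the Tkv rise in 7 (highest adjusted p = 0.121). The control fall lay between dim means of 6.89 and 6.27, which are not shown to be above background.

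**Figure D4:**
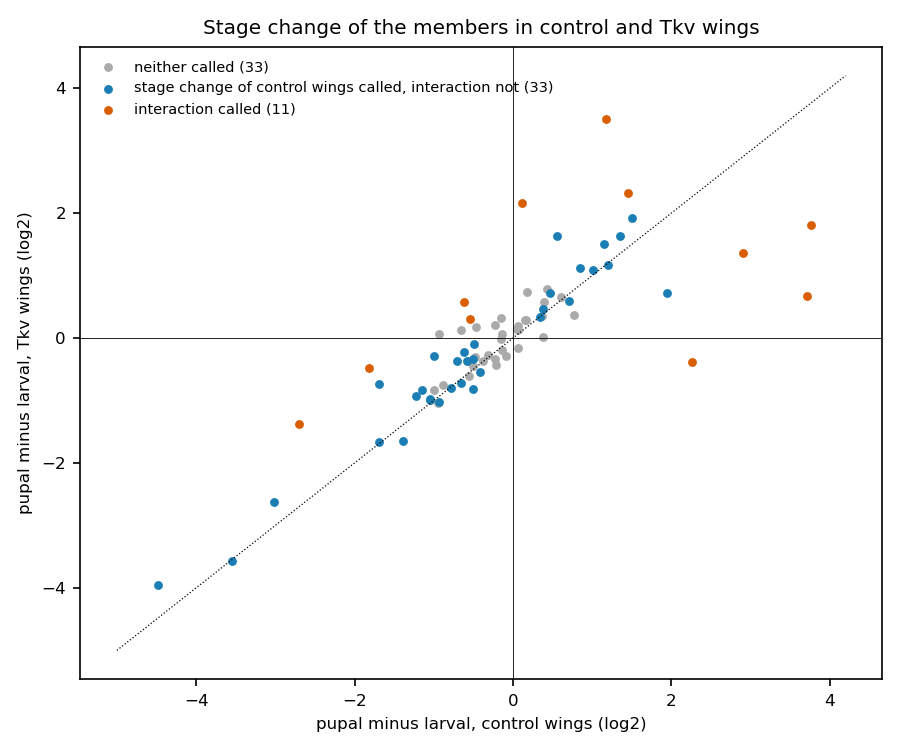
Pupal minus larval log2 difference of each member in control wings (x axis) and in Tkv wings (y axis). Points on the dotted line have the same stage change in both genotypes, and their distance from it is the difference between the pupal and larval responses. The 11 members called for that difference (orange) lie on both sides, 7 above and 4 below.

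Whether the response itself differed between the stages was tested as the interaction of stage and genotype. The responses differed for 11 members: 7 responded more strongly in pupal wings (9.09%, against 0.433% of all transcripts with a positive difference) and 4 more strongly in larval wings (5.19%, against 0.246% with a negative difference). The difference is formed from the same 2 responses that chose the members, although the choice did not use the difference itself. The adjusted p values below are therefore those of the fit across all transcripts, given to describe the members, and the shares are not read against each other. With the slide as a fixed block 9 of the 11 were called, and with array position on the slide added 6 were. Those 6 were called in all 33 refits: FBtr0078240, FBtr0070844 and FBtr0089426 with a larger pupal response, and FBtr0081578, FBtr0071697 and FBtr0086826 with a larger larval response.

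FBtr0078240 had the largest gain of response with stage. Its values were 4.95, 4.82, 5.55, 4.84 and 5.34 in control larval, 5.92, 5.70, 6.02, 5.68 and 5.56 in Tkv larval, 6.21, 6.39, 6.08, 6.61 and 6.09 in control pupal and 9.32, 8.82, 8.83, 9.78 and 9.67 in Tkv pupal wings. The larval groups nearly touched, and the pupal groups lay far apart. The response was 0.68 ± 0.19 in larval and 3.00 ± 0.19 in pupal wings, a difference of 2.33 ± 0.27 (SE, limma adjusted p = 8.17e-05), positive on 5 of 5 slides. Its larval values lay near the bottom of the intensity scale.

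FBtr0070844 differed in the same way at higher signal. It lay at 8.73, 9.12, 9.48, 8.50 and 9.25 in control larval, at 9.66, 9.71, 9.81, 9.92 and 9.83 in Tkv larval, at 8.97, 8.93, 9.12, 9.33 and 9.29 in control pupal and at 11.75, 11.90, 12.37, 11.64 and 12.09 in Tkv pupal wings. The control level showed little stage change (0.11 ± 0.17), while the response went from 0.77 to 2.82, a difference of 2.05 ± 0.23 (SE, limma adjusted p = 7.34e-05). FBtr0089426 is a bright transcript on all arrays, at 13.20, 13.07, 13.20, 12.79 and 12.91 in control larval and 11.02, 11.50, 11.50, 11.27 and 10.81 in control pupal wings. With Tkv it lay at 13.74, 14.09, 13.89, 13.97 and 13.80 in larval and at 13.21, 13.60, 13.49, 13.40 and 13.37 in pupal wings. It fell by 1.81 ± 0.13 with stage in controls and by 0.48 ± 0.13 in Tkv wings, so the response was larger in pupae by 1.33 ± 0.19 (limma adjusted p = 0.000656).

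The 4 negative differences were those of FBtr0081578, FBtr0071697, FBtr0086826 and FBtr0084148, which also had the largest rises in control wings. The control stage change enters this difference with a minus sign, so the coincidence is not read as a result. FBtr0081578 gave -3.03 ± 0.22 (SE, limma adjusted p = 8.15e-08), FBtr0071697 -2.64 ± 0.39 (limma adjusted p = 0.00103), FBtr0086826 -1.94 ± 0.23 (limma adjusted p = 8.17e-05) and FBtr0084148 -1.54 ± 0.31 (limma adjusted p = 0.0186), each with that sign on 5 of 5 slides. FBtr0081578, FBtr0071697 and FBtr0086826 were bright in all Tkv arrays of both stages. The Tkv means of FBtr0081578 and FBtr0071697 differed between stages by 0.68 and -0.38. In FBtr0086826 the Tkv mean rose by 1.82 ± 0.16 with stage, less than in controls. The difference of FBtr0084148 lost its call in 6 of 33 refits, with a highest adjusted p of 0.244.

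The remaining positive differences were less firm. FBtr0084830 gave 1.32 ± 0.26 (SE, limma adjusted p = 0.0142) and lost the call in 5 of 33 refits, with a highest adjusted p of 0.116. FBtr0073278 gave 0.88 ± 0.17 (limma adjusted p = 0.0172) and also lost it in 5, with a highest adjusted p of 0.220. FBtr0088592, at 1.20 ± 0.27 (limma adjusted p = 0.0425), and FBtr0084849, at 0.85 ± 0.19 (limma adjusted p = 0.0432), kept it in 9 and 10 refits only, with highest adjusted p values of 0.404 and 0.223.

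**Figure D5:**
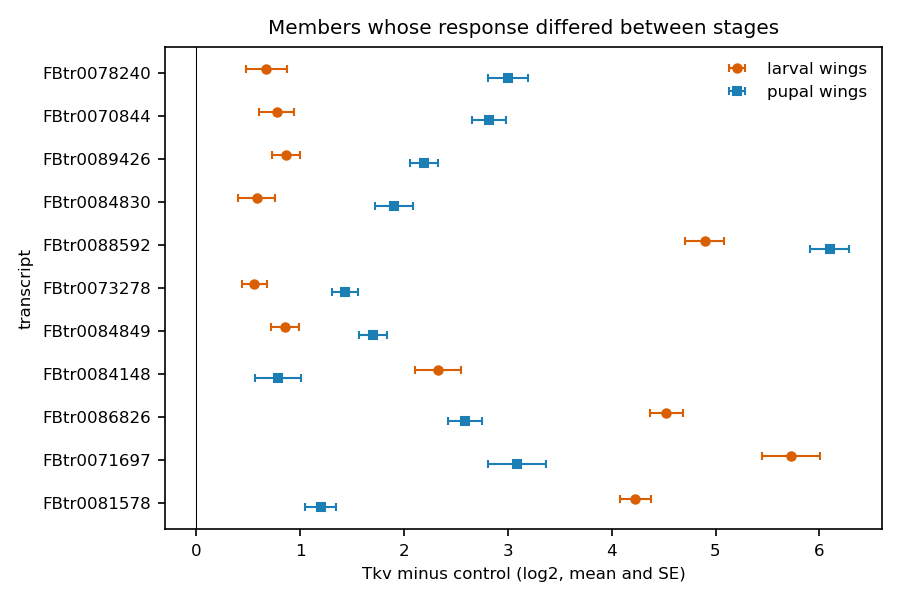
Response (Tkv minus control, log2, x axis) of the 11 members called for a difference between stages (y axis), in larval wings (orange circles) and pupal wings (blue squares), with bars for the SE. FBtr0078240, at the top, goes from 0.68 in larvae to 3.00 in pupae, and FBtr0081578, at the bottom, from 4.23 to 1.20.

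Some members were close to the edge of the rule. The smaller of the 2 responses was under 0.6 in 16 members, and in 13 the smallest of the 10 pair differences was under 0.1. The pair differences were all at least 0.5 in 23. Just inside lay FBtr0084900 with a smaller response of 0.502, FBtr0100462 with 0.503 and FBtr0079286 with 0.504. FBtr0100462 had a small spread, with values of 11.73, 11.68, 11.77, 11.46 and 11.62 in control larval and 12.28, 12.53, 12.39, 12.38 and 12.28 in Tkv larval wings. FBtr0079286 lay at 4.80 to 5.45 in its 4 group means, near the lowest intensities, and its groups overlapped at both stages. Just outside lay FBtr0070663 with 0.499, FBtr0084154 with 0.495 and FBtr0070805 with 0.490, all with Tkv above control in every pair. The last had a pupal response of 3.05 and was left out for its larval response alone. Without the condition on pairs 164 transcripts would have been members. Of the 87 so left out, 47 failed a pupal pair only, 20 a larval pair only and 20 a pair at each stage.

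Consecutive ID numbers occurred 4 times among the members, in 9 members in all. The run FBtr0088591, FBtr0088592 and FBtr0088593 held 2 of the 3 members with the largest mean response, and FBtr0088593 followed at a lower level, with control means of 5.58 and 5.43 and responses of 1.37 and 1.84. FBtr0084829 and FBtr0084830 both fell with stage in control wings, by 3.01 and 2.70. The other runs were FBtr0077110 with FBtr0077111 and FBtr0076696 with FBtr0076697. Whether such neighbours come from the same gene, or share probes, is not told by the files, so the 9 may not be 9 separate observations. Of 113 non-members whose number adjoined that of a member, 3 were called higher with Tkv in larval wings (2.65%, against 0.730% of all transcripts) and 4 in pupal wings (3.54%, against 1.62%). Their median responses were 0.01 and 0.03. FBtr0071698, chosen after its values were seen, adjoins FBtr0071697 and had a response of 2.52 in larval and of -2.43 in pupal wings, where FBtr0071697 had 5.73 and 3.09.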

How the data were processed

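Intensities of 15473 transcripts were read from 1 deposited file per array (20 arrays). Per the submitters' processing notes the authors used RMA. No version or setting of it is known here. Per the file headers each intensity summarises 3 to 5 probe pairs. The log2 values of the deposited series table equal the log2 of those intensities to within 5.0e-09. Array medians of the deposited log2 values lay between 9.19 and 9.59. The deposited error column was left aside.

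Log2 intensities were quantile-normalized over the 20 arrays, which hides any shift common to all transcripts. No transcript was filtered. limma 3.58.1 in R 4.3.3 fitted 4 group means (16 residual degrees of freedom) across all transcripts. Tests were two-sided. A call means a p under 0.05 after Benjamini-Hochberg adjustment across all transcripts. The fit was tested on simulated data with 200 changed transcripts per contrast. Groups and replicate numbers came from the sample titles, and each number lay on a slide of its own, with 1 array of every group. The 5 samples of a group were isolated independently, per the series' design text, and p-values measure the spread between them. The number of arrays limits precision. The parting value of 8.61 is the lowest point between 7 and 10 of the density of normalized values (bandwidth 0.3).

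Members and lists were chosen with earlier results of these data known. Named were the 8 members with the largest mean response, up to 4 per direction with the largest called stage change in controls and the largest called interaction, the 3 transcripts nearest either side of the threshold, and members dim on all control and bright on all Tkv arrays. Members beyond that rule are FBtr0073278, FBtr0084849, FBtr0080853, FBtr0070049, FBtr0088593 and those in runs of ID numbers, named after their values were seen. Python 3.11.15 with matplotlib 3.10.9 drew the figures. Of all IDs, 44 occurred in the synonyms of the RefSeq gene table (Release 6 assembly).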

Additional observations from a re-analysis of the deposited data

Results flagged for a closer look

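In 4 of 92 groups of 5 arrays examined, for 23 named transcripts, 1 array stood apart from the rest of its group. By chance about 1 in 20 groups would show this. Replicate 2 of the Tkv larval wings was high for FBtr0073511, at 12.97, and for FBtr0088592, at 12.18. Replicate 4 was low for FBtr0089463 in both pupal groups, at 6.44 in controls and 8.21 with Tkv.

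By the limma interaction test the response was called different between stages for 11 members. The difference is formed from the same responses that chose the members, so these calls are given as a description. Of the 11, 6 were called in all 33 refits, while FBtr0088592 and FBtr0084849 kept the call in 9 and 10 only. The pupal minus larval difference was 2.33 for FBtr0078240, 2.05 for FBtr0070844, 1.33 for FBtr0089426, 1.32 for FBtr0084830, 1.20 for FBtr0088592, 0.88 for FBtr0073278 and 0.85 for FBtr0084849. It was -3.03 for FBtr0081578, -2.64 for FBtr0071697, -1.94 for FBtr0086826 and -1.54 for FBtr0084148.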

How the results depend on the processing

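The number of members followed the rule closely: 45 at a threshold of 0.75, 18 at 1, 164 without the condition on pairs and 46 with non-overlapping groups. Leaving out 1 replicate number gave 83 to 124 members, the last without replicate 2, with 64 shared. The rule then asks for fewer pairs per stage to be higher, a weaker condition. Without further normalization there were 68, of which 66 were shared. Larval calls numbered 29 at an adjusted p under 0.01, and 29 to 47 with a replicate number or an array left out. The corresponding ranges were 43 to 57 for pupal calls, 37 to 45 and 34 to 41 for the stage changes of control and Tkv wings, and 6 to 11 for the difference of response between stages. That difference was called for 6 members at an adjusted p under 0.01 and for 6 with array position and the replicate block. The cause of these shifts was not tested. Among the 46 members with a mean above 8.61, an alternative chosen after seeing the data, 24 were called for the Tkv stage change (52.2%, against 49.8% of all transcripts above it), a lower count because fewer members enter.

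Same-numbered arrays of different groups share a slide, by their image names, and tended to deviate together. Their deviations from the group means correlated at -0.186 to 0.287 (median 0.072, 13 of 30 over 0.1), against a median of -0.029 with 19 of 120 over 0.1 for other numbers. An array's best match in another group had its number in 30 of 60 cases, where 12 would be expected of numbers that carry nothing. The fit without the block was kept as the main one, and the adjusted p values of single transcripts come from it unless said. Not every pair correlated above 0.1, but that does not show that the slide can be ignored, so the calls with the block are given too. With the replicate block as a fixed term 50 larval, 60 pupal, 47 control-stage, 43 Tkv-stage and 9 response-difference calls were made. FBtr0084849 (limma adjusted p = 0.0559) and FBtr0088592 (limma adjusted p = 0.0727) lost their response-difference call. No alternative reversed the direction of a named control stage change or of a called response difference. The sign of each other call was not compared between fits. Dim signal limits the values of the 15 members that were dim on all arrays.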

Other observations

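Replicate 4 of the control larval wings held the highest larval control value for 27 of the 77 members (35.1%), where it did so for 21.7% of all transcripts, and for 5 of the 8 members with the largest response. The members' median deviation from the group mean on that array was 0.09, against 0.02 over all transcripts. The other larval controls departed too. Replicates 1 and 5 held the highest value for 7.79% of members each, against 22.7% and 21.6% of all transcripts. Replicates 2 and 3 held it for 23.4% and 26.0% of members, against 15.3% and 18.8%. In pupal controls replicate 4 held the lowest value for 26 members (33.8%, against 24.8% of all transcripts), with a median deviation of -0.11 against -0.02 over all transcripts. These counts were made after the values had been seen, and their part in the responses was not tested beyond the refits without each array.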
